A study of Mus musculus with 2 samples.

Results

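The G9a-GLP complex and its known partners were followed at the RNA level in mouse embryonic stem cells (ESCs) that lack functional G9a. The genes are *Ehmt2* (G9A), *Ehmt1* (GLP), *Wiz*, *Zfp644* and *Cdyl*, and every probe set annotated with one of these symbols and no other was taken. These are 5 of 18194 genes measured, and they had 14 of the 34958 probe sets with a single gene symbol, out of 45101 on the array, with 2 for *Ehmt2*, 1 for *Ehmt1*, 2 for *Wiz*, 6 for *Zfp644* and 3 for *Cdyl*. To ask how the RNA of these genes differs when G9a is lost, total RNA was hybridised to 1 Affymetrix array of G9a-KO ESCs and 1 array of WT ESCs. Both are TT2 cells, an ESC line of F1 origin (C57BL/6 female crossed to CBA male). The G9a-KO cells carried 1 G9a allele disrupted earlier and 1 floxed allele from which Cre had removed exons 26 and 27, the core of the catalytic SET domain. The labels give the same treatment text for both arrays, namely 800 nM 4-hydroxytamoxifen for 48 h and a further 48 h without it, and do not say whether WT cells were exposed to it. In the methods of the study, however, the G9a-KO cells are a null line kept on inactivated embryonic fibroblasts. Each genotype is a single line, so a property of the line and an effect of the genotype cannot be told apart.

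G9A and GLP are closely related SET domain enzymes that act as a heterodimer and place mono- and di-methylation on lysine 9 of histone H3 (H3K9me1 and H3K9me2), a mark of silent genes in euchromatin. The dimer does not recognise DNA sequence by itself. WIZ and ZFP644 (ZNF644 in human) are proteins with several C2H2 zinc fingers that bind the dimer and bring it to chromatin, and CDYL is a chromodomain protein that reads methylated histone H3 and links G9A to the repressor REST. In ESCs, G9A is also found in PCGF6-PRC1 with the E-box-binding proteins MAX and MGA and with E2F6.

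Because MAX, MGA and E2F6 bind DNA, the starts of the 5 genes were searched for the E-box letters CACGTG, which read the same on both strands, and for the E2F letters GCGGGAA on both strands (TTCCCGC on the other). RefSeq (GRCm38.p6) gave 12 start windows for the 5 genes, each of 250 bases before and 50 bases after an annotated start. The E-box occurred in 2 of them, both of *Ehmt2*, against 7.15% of all 32851 windows, and the E2F letters in 3, both windows of *Zfp644* and 1 of the 4 of *Wiz*, against 4.60% of all windows. No match of one motif overlapped a match of the other. The window of *Ehmt1* and the 3 windows of *Cdyl* held neither. The shares over all windows were not matched for base content. G and C made up 52.7% of the median window, 70.3% and 82.7% of the *Ehmt2* windows and 55.7% and 73.3% of those of *Zfp644*. Whether the motifs are more frequent than in windows of like content was not tested. The first *Ehmt2* window and both *Zfp644* windows are shown because these genes held the lowest differences between the arrays, with the motif in capitals.
Ehmt2, chr17:34898224-34898523, plus strand: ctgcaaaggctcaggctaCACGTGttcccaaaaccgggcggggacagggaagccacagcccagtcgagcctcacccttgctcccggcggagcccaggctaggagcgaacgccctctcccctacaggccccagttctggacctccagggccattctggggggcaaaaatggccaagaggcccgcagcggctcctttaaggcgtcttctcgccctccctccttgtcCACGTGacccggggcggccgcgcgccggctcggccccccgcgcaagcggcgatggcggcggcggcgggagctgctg
Zfp644, chr5:106696781-106697080, minus strand: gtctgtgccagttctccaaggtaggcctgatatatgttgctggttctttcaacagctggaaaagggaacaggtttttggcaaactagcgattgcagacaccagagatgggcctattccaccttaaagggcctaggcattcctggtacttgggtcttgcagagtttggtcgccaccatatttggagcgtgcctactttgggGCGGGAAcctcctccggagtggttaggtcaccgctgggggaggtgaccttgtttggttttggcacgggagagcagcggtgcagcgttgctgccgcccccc
Zfp644, chr5:106696476-106696775, minus strand: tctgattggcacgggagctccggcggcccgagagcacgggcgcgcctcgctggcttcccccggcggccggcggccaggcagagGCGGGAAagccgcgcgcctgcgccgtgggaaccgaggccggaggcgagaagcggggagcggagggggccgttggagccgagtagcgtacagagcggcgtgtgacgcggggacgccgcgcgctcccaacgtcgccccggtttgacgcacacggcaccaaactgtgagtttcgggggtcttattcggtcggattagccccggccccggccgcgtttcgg
In *Ehmt2* the E-boxes began 232 and 26 bases before this start, and another began 236 bases before the start of its other window (chr17:34898720-34899019). In *Zfp644* the E2F letters began 50 bases before the start in the first window and 167 bases before it in the second. A match describes these letters only and shows no binding.

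The targeted gene was examined first. Levels are log2 values after the 75th percentile of the same array was subtracted, so that 0 is that percentile, and each difference is G9a-KO minus WT. The median of all probe sets lay at -2.13 in G9a-KO and -2.24 in WT, and values near or below it are dim. The brighter *Ehmt2* probe set (1460692_at) stood at 0.51 in G9a-KO and 2.05 in WT, a difference of -1.54 (2.90-fold lower). The signal in G9a-KO was thus 34.5% of that in WT and still well above the median of the array. The other *Ehmt2* probe set (1426888_at) stood at -2.07 in G9a-KO and -2.27 in WT, a difference of 0.20. This dim probe set was slightly higher in G9a-KO and was the member probe set that did not share the direction of the others. Both probe sets were designed from the same source sequence, yet their differences lay 1.73 apart. Among 3788 groups of probe sets that share a gene and a source sequence, the median range was 0.25, and 99.3% had a smaller range than *Ehmt2*. The positions of the probes relative to the deleted exons were not available for use here, so neither probe set checks the label of the G9a-KO array. The genes with the difference most like that of 1460692_at, among genes above the median on both arrays, were *Adat1* (-1.54), *Map9* (-1.53) and *Pygo2* (-1.54). With 1 array per genotype, this likeness is in a single number.

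*Ehmt1*, which encodes the other catalytic subunit, was measured by 1 bright probe set (1454776_at). It stood at 2.21 in G9a-KO and 2.48 in WT, a difference of -0.26 (1.20-fold lower). This was within 1.3-fold, the threshold by which the study calls up-regulated genes for this pair of arrays, applied here in both directions. The arrays therefore showed a far smaller difference for *Ehmt1* than for the bright probe set of *Ehmt2*, though without replicates the gap between them has no test.

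**Figure D1:**
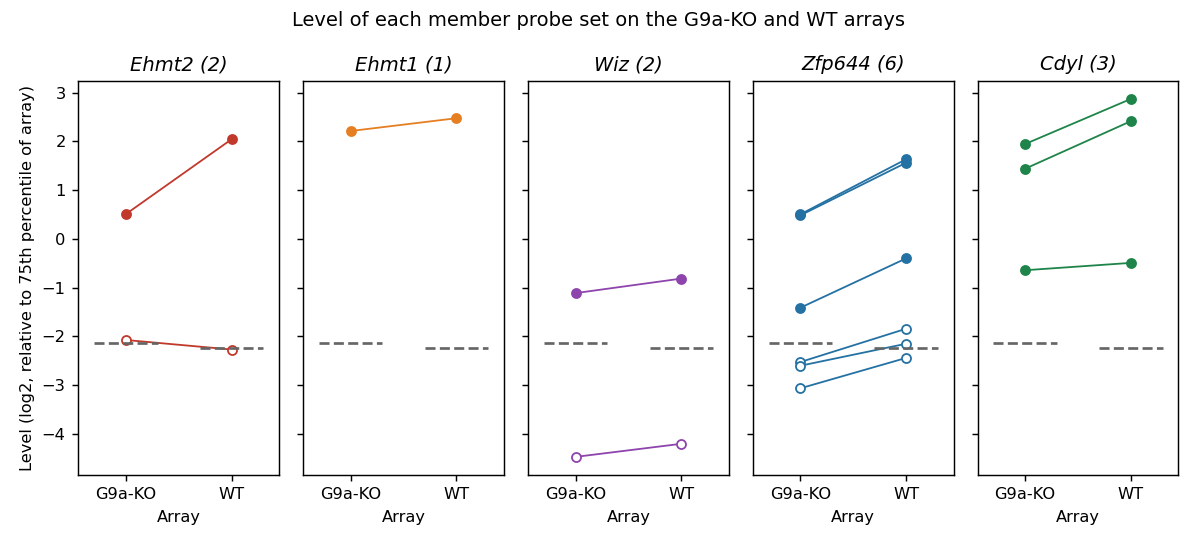
Level of each probe set (log2 relative to the 75th percentile of its array, vertical axis) on the G9a-KO array (left) and the WT array (right), 1 panel per gene with its number of probe sets, 1 point per array and a line joining the points of 1 probe set. Dashed marks are the medians of all probe sets (-2.13 in G9a-KO, -2.24 in WT) and open points are probe sets not above the median on both arrays; 13 of the 14 lines are lower on the left.

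The zinc finger partners differed in how far they departed from WT. The bright probe set of *Wiz* (1418202_a_at) stood at -1.11 in G9a-KO and -0.81 in WT, a difference of -0.30 (1.23-fold lower). Its other probe set (1430330_at) was among the dimmest on the array, at -4.47 in G9a-KO and -4.20 in WT, and differed by -0.27. Both were within the threshold, and only the first passed it when the arrays were centred on their medians (-0.40).

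*Zfp644* was over 1.3-fold lower in G9a-KO by all 6 of its probe sets. The brightest (1419984_s_at) stood at 0.51 in G9a-KO and 1.64 in WT, a difference of -1.13 (2.19-fold lower). The next (1429623_at) stood at 0.48 in G9a-KO and 1.56 in WT, and differed by -1.08. Probe set 1436985_at stood at -1.41 in G9a-KO and -0.40 in WT, and differed by -1.01. These 3 probe sets lay above the median on both arrays and were designed from different source sequences, and their differences spanned only -1.13 to -1.01 (SD 0.059 over probe sets, which are not replicates). Of the genes with at least 3 probe sets above the median on both arrays, 5.63% had every such probe set over 1.3-fold lower.

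The other probe sets of *Zfp644* were dim. Probe set 1449691_at stood at -2.53 in G9a-KO and -1.84 in WT, and differed by -0.68. Probe set 1419983_at stood at -2.60 in G9a-KO and -2.15 in WT, and differed by -0.45. Probe set 1439769_at stood at -3.07 in G9a-KO and -2.44 in WT, and differed by -0.62. All of these lay below the median in G9a-KO, and their differences were smaller than those of the bright probe sets. The first and second of them share their source sequence with the brightest probe set, and the range of differences within that trio was 0.68.

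*Cdyl* was lower by its bright probe sets and close to WT by the other. Probe set 1418071_s_at stood at 1.95 in G9a-KO and 2.87 in WT, a difference of -0.93 (1.90-fold lower). Probe set 1418070_at stood at 1.44 in G9a-KO and 2.42 in WT, a difference of -0.98 (1.97-fold lower). Probe set 1448935_at stood at -0.64 in G9a-KO and -0.49 in WT, a difference of -0.15 (1.11-fold lower), although it was also above the median on both arrays. All 3 were designed from 1 source sequence, and their range of 0.83 exceeded that of 91.2% of all groups that share a gene and a source sequence. Those groups were not matched for number of probe sets, and a range tends to widen with that number. The size of the *Cdyl* difference therefore depended on the probe set.

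**Figure D2:**
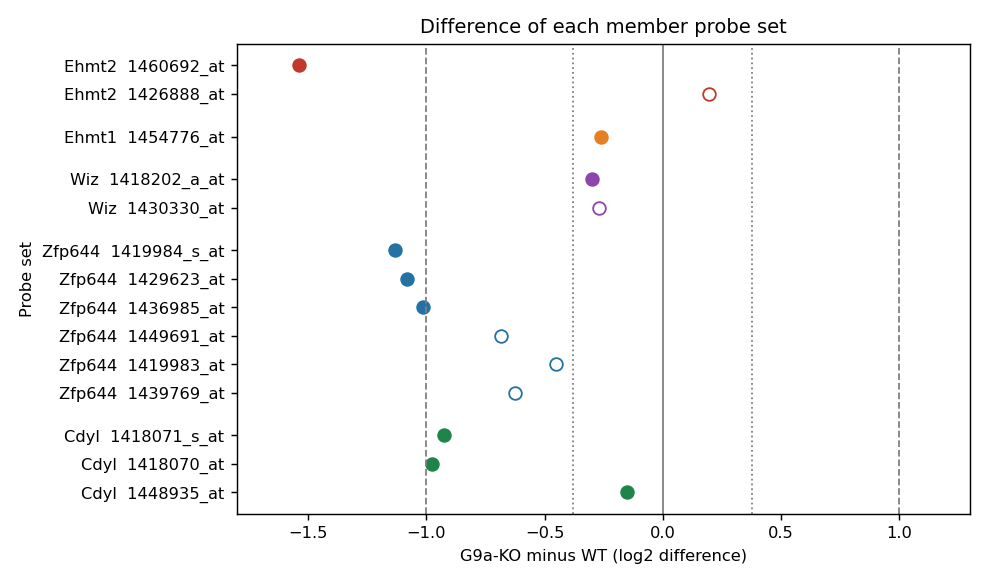
Difference of each member probe set (G9a-KO minus WT, log2, horizontal axis), grouped by gene, 1 point per probe set from 1 array per genotype. Dotted lines mark 1.3-fold and dashed lines 2-fold, open points are probe sets not above the median on both arrays, and 4 points lie beyond the lower 2-fold line, 1 of *Ehmt2* and 3 of *Zfp644*.

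Over the whole group, 9 of the 14 probe sets were over 1.3-fold lower in G9a-KO, 0 were over 1.3-fold higher and 5 were within the threshold. Of all single-gene probe sets, 15.4% were over 1.3-fold lower and 17.9% over 1.3-fold higher. At 2-fold, 4 member probe sets were lower and 0 higher, against 3.32% lower and 4.16% higher of all single-gene probe sets. The median difference was -0.65 for the members and 0.056 for all single-gene probe sets. The value 0.056 equals the shift that subtracting the 75th percentiles added to every difference, so the shares below 0 and past the thresholds carry that shift as well. Because 6 of the 14 probe sets measure *Zfp644*, the count leans on that gene, and among the 8 others 3 were over 1.3-fold lower, with a median of -0.28. Without the targeted gene, 12 of 12 probe sets were below 0 and 8 were past 1.3-fold, and 44.7% of all single-gene probe sets were below 0. Probe sets of 1 gene share their transcript, so these counts do not stand for as many independent measurements.

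The share of probe sets past the threshold depended on brightness, which bears on how the members compare with the array as a whole. Among single-gene probe sets above the median on both arrays, 20.9% were over 1.3-fold lower and 20.6% higher, and at 2-fold 4.11% were lower and 4.82% higher. Of the 9 member probe sets in that range, 6 were over 1.3-fold lower and 4 over 2-fold lower, with a median of -0.98, against 0.021 for all of them. The 5 dimmer member probe sets had a median of -0.45, and 3 of them were over 1.3-fold lower, against a median of 0.056 and 8.69% of all single-gene probe sets not above the median on both arrays. The spread from hybridisation onwards was gauged by the 18 probe sets for RNA spiked in at that step, whose differences ran from -0.16 to 0.21 (SD 0.11). The differences of *Ehmt1* and *Wiz* were a little below this range and those of the bright probe sets of *Ehmt2* and *Zfp644* far below it. Probe sets 1448935_at of *Cdyl* and 1426888_at of *Ehmt2* (0.20) lay inside it. The median range of 0.25 between probe sets of 1 source sequence is about as large as the differences of *Ehmt1* and *Wiz*. Spike-ins do not carry the variation between cultures, which 1 array per genotype cannot show.

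**Figure D3:**
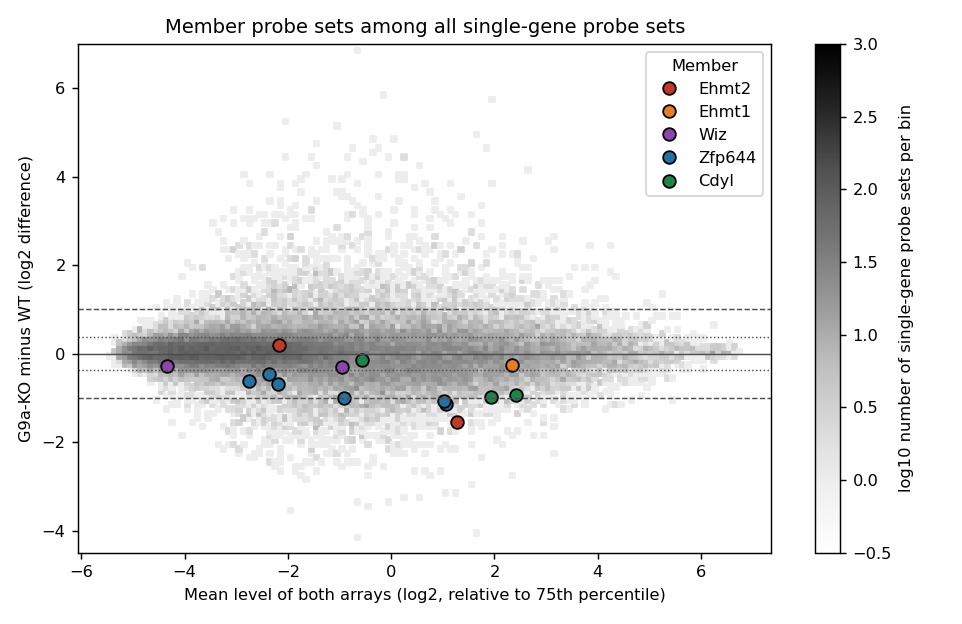
Difference (G9a-KO minus WT, log2, vertical axis) against the level averaged over the arrays (log2 above the 75th percentile, horizontal axis) for 34958 single-gene probe sets, shaded by number per bin, with the 14 member probe sets in colour. Dotted lines mark 1.3-fold and dashed lines 2-fold; 9 member points lie below the lower dotted line and 0 above the upper one.

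Markers of other cell types also differed between the arrays. Every one of 19 primitive endoderm markers exceeded 1.3-fold in favour of G9a-KO and 18 exceeded 2-fold, and their summed linear signal was 24773 in G9a-KO and 2386 in WT. These markers were chosen with their direction known, and 0 of them in G9a-KO and 7 in WT lay below the median of the array. Of 14 ESC markers, 5 were over 1.3-fold lower and 2 over 1.3-fold higher. Of all 18194 genes by the brightest probe set, 17.2% were lower and 17.4% higher. The lower ESC markers were *Lin28a* (-1.29), *Zfp42* (-0.79), *Sall4* (-0.62), *Utf1* (-0.61) and *Pou5f1* (-0.46), and the higher ones *Tfcp2l1* (1.14) and *Dppa5a* (0.61). The summed signal of the 14 was 44797 in G9a-KO and 47899 in WT. *Dppa5a*, the brightest of them, weighs most in this sum, which therefore says little of the lower markers. Of 15 measured markers of embryonic fibroblasts, 6 were over 1.3-fold higher and 0 lower, against the same shares, with summed signals of 4658 in G9a-KO and 3390 in WT, and 8 in G9a-KO and 9 in WT lay below the median. The largest differences among them were those of *Col5a2* (1.08 in G9a-KO and -1.98 in WT), *Fn1* (3.31 in G9a-KO and 1.71 in WT) and *Col6a3* (-0.87 in G9a-KO and -2.24 in WT). *Lum* (0.98, though below the median on both arrays), *Col1a2* (0.83) and *Twist1* (0.48) were also over 1.3-fold higher. *Acta2* (0.30) and *Postn* (0.16) were higher within 1.3-fold, and *Col1a1* and *Col3a1* were below the median on both arrays. Slightly lower in G9a-KO, all within 1.3-fold, were the bright *Vim* (-0.047) and *Pdgfrb* (-0.27), *Prrx1* (-0.19), *Dcn* (-0.052) and *Thy1* (-0.040). In such bulk RNA, fewer cells of a type and less RNA per cell cannot be told apart, and the part of these cells in the lower values of *Ehmt2*, *Zfp644* and *Cdyl* was not tested.

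Other genes of the pathway were examined by the brightest probe set of each gene. Of 29 factors that bind the dimer, are methylated by it or share a complex with it, 12 were over 1.3-fold lower in G9a-KO, 5 over 1.3-fold higher and 12 within the threshold, with a median of -0.16. Over all genes, 17.2% were lower, 17.4% were higher and the median was 0.036. *Ctbp1*, a co-repressor found with G9A, stood at 1.27 in G9a-KO and 2.36 in WT (2.13-fold lower). *Prdm1*, a repressor that recruits G9A and is also expressed in visceral endoderm, stood at -0.87 in G9a-KO and -2.08 in WT (2.31-fold higher). *Cdyl2*, the paralogue of *Cdyl*, stood at 3.26 in G9a-KO and 2.08 in WT, 2.27-fold higher and 1.50 higher on the log2 scale by its other bright probe set, the opposite direction to *Cdyl*. *Zfp462*, whose zinc finger protein also binds GLP and G9A, differed by -0.092 and by -0.093 in its other bright probe set. The genes of the DNA-binding proteins behind the motif search were lower by the brightest probe set, and a link of their values to the motifs was not tested. *Mga* differed by -1.03, and by -0.95 and -0.49 in its other bright probe sets. *E2f6* differed by -0.64, but by only -0.035 in its other bright probe set, and *Max* differed by -0.42. Among other subunit genes of PCGF6-PRC1, *L3mbtl2* (-0.81) and *Hdac1* (-0.58) were lower and *Hdac2* (0.56) was higher. *Pcgf6* (0.055), *Rnf2* (0.024), *Ring1* (-0.28) and *Cbx3* (-0.15) were within 1.3-fold, though other bright probe sets of *Pcgf6* differed by 0.40 and 0.43.

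Other enzymes that place or remove H3K9 methylation were examined in the same way, and of these *Kdm1a* (-0.041) also stands in the list of associated factors. Of 6 measured methyltransferases among the 7 listed, 1 was over 1.3-fold lower and 0 were higher, with a median of -0.19. *Setdb1*, which makes H3K9me3, differed by -0.49, *Suv39h2* by -0.36 and *Setdb2* by -0.24. The other bright probe sets of *Suv39h2* differed by -0.50 and 0.036, so its value depended on the probe set. *Suv39h1* had no single-gene probe set and was not analysed here. Of 11 demethylases that act on H3K9, 2 were over 1.3-fold lower and 1 over 1.3-fold higher, and the median was 0.041. These shares, 1 of 6 and 2 of 11 lower, were close to the 17.2% of all genes. *Jmjd1c* (-0.71) and *Kdm3a* (-0.64), of the KDM3 family that removes H3K9me2, were lower, and *Kdm4c* (0.41) was higher. *Jmjd1c* differed by only -0.18 by its other bright probe set. *Kdm3b*, the remaining KDM3 member, differed by 0.068 by its brightest probe set and by 1.57 by another, so its value depended on the probe set.

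**Figure D4:**
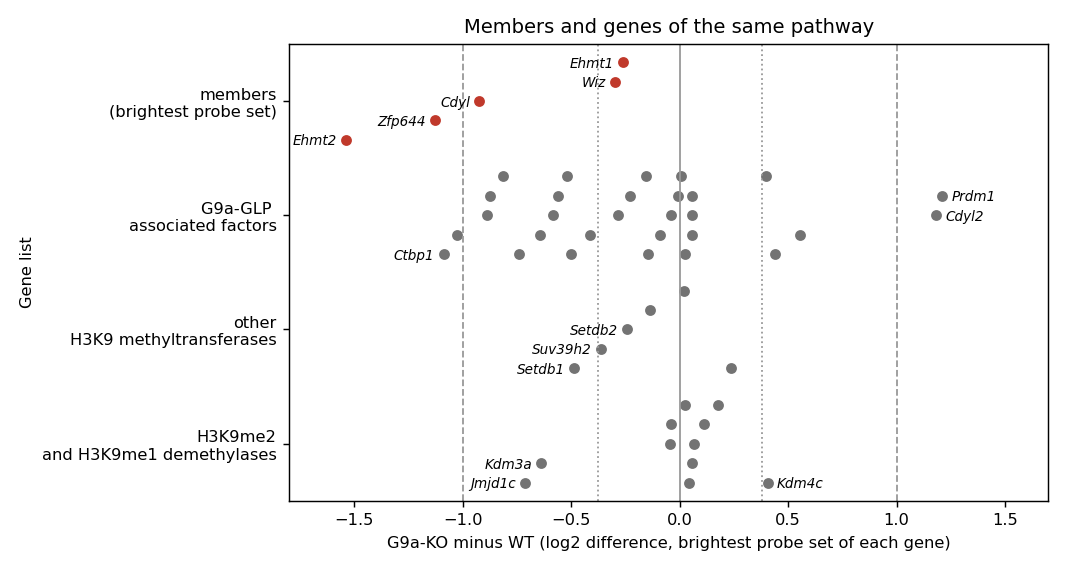
Difference (G9a-KO minus WT, log2, horizontal axis) of the brightest probe set of each gene, for the 5 members (red) and 3 lists of the pathway (grey), 1 point per gene from 1 array per genotype; vertical position within a list only separates points. Dotted lines mark 1.3-fold and dashed lines 2-fold; *Ehmt2* (-1.54) is the lowest point shown and *Prdm1* (1.21) the highest.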

How the data were processed

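Total RNA (200 ng) of G9a-KO and WT ESCs was labelled with biotin and hybridised to Affymetrix Mouse Genome 430 2.0 arrays, 1 per genotype. The deposited values are log2 expression values, made by the authors with RMA in R 3.2.1 (submitters' processing notes), which corrects background, equalises the distributions of the arrays and summarises probes. A difference in total RNA per cell can therefore not be seen. The number of arrays limits the precision.

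Following the methods of the study, the 75th percentile of each array (7.31 in G9a-KO, 7.37 in WT) was subtracted. The log2 difference of G9a-KO and WT was formed for each probe set. The 1.3-fold threshold that the study sets for up-regulated genes of this pair was used in both directions. The 2-fold threshold was added here, and the study calls a gene from any 1 of its probes. Genes were named from the platform annotation, and all 14 member probe sets matched RefSeq by gene ID. Where 1 value per gene was needed, the probe set with the highest mean was used. All member probe sets are given. Up to 3 genes per pathway list are named, those with the largest absolute difference above the median on at least 1 array. Others, such as *Zfp462* and *Kdm3b*, were named after their values were seen. The members and lists were chosen with earlier results of these data known. No p-value was computed. The alternatives were no shift, centring on the median, quantile normalization, lowess (span 0.3), filters on dim or cross-matching probe sets and other gene values, and the steps were tested on simulated data. Python 3.11.15, numpy 2.4.6, pandas 2.3.3 and statsmodels 0.14.6 were used.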

Additional observations from a re-analysis of the deposited data

How the results depend on the processing

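With 1 array per genotype no difference has an error, no array can be left out, and 5 of the 14 member probe sets were not above the median on both arrays. Centring on the median lowered every difference by 0.10. Under no shift, median centring, quantile normalization and lowess, 13 of the 14 member probe sets kept a value below 0 and 1426888_at of *Ehmt2* stayed above 0. The 4 member probe sets over 2-fold lower became 5 under no shift and quantile normalization, with 1418070_at of *Cdyl* added. Median centring made them 6, with 1418071_s_at of *Cdyl* added as well. Whether *Cdyl* passed 2-fold thus depended on the scaling. Shifts of more than the spike-in SD of 0.11, or counts moved by over 1.5 times, were as follows. The median of the members was -0.80 with probe sets above the median only and -0.54 without _s_at and _x_at probe sets. Averaging the probe sets of a gene gave -0.67 for *Ehmt2*, -0.83 for *Zfp644* and -0.68 for *Cdyl*. Median centring left 3 higher associated factors. The lower methyltransferases numbered 2 under no shift, median centring and quantile normalization and 0 by the mean over probe sets. The higher demethylases numbered 0 under those scalings, and by the mean 1 was lower and 2 were higher. The other 81 of 96 values stayed within these limits.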

Other observations

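The HP1 genes, whose proteins bind methylated H3K9, were looked at within the list of associated factors, a choice made after their values were seen. *Cbx1* (HP1 beta) stood at 3.53 in G9a-KO and 4.09 in WT, a difference of -0.56, and its 4 other bright probe sets differed by -0.62 to -0.43. *Cbx5* (HP1 alpha) stood at 1.63 in G9a-KO and 2.37 in WT, a difference of -0.74, with -0.56 to -0.30 by its 3 other bright probe sets. *Cbx3* (HP1 gamma), also a subunit of PCGF6-PRC1, had a single probe set above the median and differed by -0.15. That probe set was dim, at -1.88 in G9a-KO and -1.73 in WT, so its small difference says little beside those of *Cbx1* and *Cbx5*. *Ctbp2*, the paralogue of *Ctbp1*, differed by -0.50 and by -0.58 in its other bright probe set, and 17.2% of all genes were over 1.3-fold lower. The DNA ligase gene *Lig1*, whose protein is methylated by the dimer, was higher in G9a-KO by 0.44. These values have no replicate check.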
